A study of Mus musculus with 18 samples.

Results

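The transcript isoforms used by epididymal adipocytes were examined gene by gene in 6 eWAT samples. Each sample held mature adipocytes that floated after collagenase digestion of epididymal white fat (eWAT), taken at 16 weeks of age from wild type C57BL/6J male mice on regular chow. The series also holds 6 samples of inguinal adipocytes (iWAT) and 6 of brown fat tissue (BAT), whose tables carry no transcript accessions and were not used here. A gene was a member when at least 2 distinct RefSeq mRNA rows (accessions beginning with NM_) carried its symbol and its best row had a mean RPKM of at least 5 over the 6 samples. RPKM is the read count of a row scaled by its length and by the reads of the sample. By this rule 1521 of the 20325 symbols with an NM_ row were members, with 3868 rows in all. The members were chosen by their mean RPKM in these samples, so their levels are a description and no test was applied to them. The labels number the samples but do not say that each came from a separate mouse, and every SD below is the spread between the 6 samples.

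One gene can give several mRNAs through different start sites, different ends and exons that are included or left out. Such isoforms can encode proteins that differ in location, partners or activity, and fat cells are known for isoforms of PPARγ, lipin-1 and neuronatin. Short reads seldom tell which whole isoform they came from. A read in an exon shared by several isoforms is counted on every row that has this exon, so rows of 1 gene are not separate quantities. The difference between 2 rows gives the reads of the exons in which they differ. It is a net value where each row has exons of its own. More than 1 row of a gene can carry the same exon, so the difference need not belong to 1 isoform.

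The RPKM of the 6 samples rests on 26607733 to 34048018 reads per sample. A row of 2000 bases with 3 reads would have an RPKM of 0.0441 to 0.0564. The rows of the adipocyte markers (8 of 8 genes found) summed to a low of 10670, a median of 19097 and a high of 21584 RPKM, and the low value was that of eWAT sample 15. Macrophage markers (7 of the 8 names found) summed to 2267 RPKM in sample 15 and to 162 to 540 in the others. Markers of the epididymis, the duct that adjoins this fat pad, summed to 77.4 RPKM in sample 14 and 66.2 in sample 15, to 3.52 in sample 13 and to 0 in samples 7, 8 and 11. Their part in the results below was not tested. A lower level in a sample cannot be told apart from fewer cells of a type.

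The exons that carry the results are shown first, because the text below turns on whether reads fell inside them. Each is a coding exon that 1 row of a gene has and another row lacks. They were read from the mm9 genome, 5′ to 3′ on the strand of the gene, with the exon in capitals and 15 bases of intron on each side in lower case. In all 8 the exon stood between the AG and GT letters of splice sites, and its length was a multiple of 3.
Vegfa, 132 bases, chr17:46157940-46158071, minus strand: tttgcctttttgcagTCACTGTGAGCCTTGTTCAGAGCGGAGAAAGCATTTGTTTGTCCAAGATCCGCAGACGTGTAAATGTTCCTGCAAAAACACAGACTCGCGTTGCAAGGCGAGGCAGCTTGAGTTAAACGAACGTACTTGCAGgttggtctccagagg
Vegfa, 72 bases, chr17:46159226-46159297, minus strand: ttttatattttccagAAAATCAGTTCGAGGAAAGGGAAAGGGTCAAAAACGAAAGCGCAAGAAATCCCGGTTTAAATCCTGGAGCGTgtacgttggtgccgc
Lpin1, 99 bases, chr12:16577970-16578068, minus strand: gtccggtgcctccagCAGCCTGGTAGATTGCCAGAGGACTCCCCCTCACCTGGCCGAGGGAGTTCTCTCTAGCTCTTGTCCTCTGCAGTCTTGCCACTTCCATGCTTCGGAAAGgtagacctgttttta
Nnat, 81 bases, chr2:157386949-157387029, plus strand: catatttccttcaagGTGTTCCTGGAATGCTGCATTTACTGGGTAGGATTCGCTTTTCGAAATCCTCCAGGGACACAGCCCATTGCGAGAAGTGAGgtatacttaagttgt
Pnpla2, 168 bases, chr7:148644491-148644658, plus strand: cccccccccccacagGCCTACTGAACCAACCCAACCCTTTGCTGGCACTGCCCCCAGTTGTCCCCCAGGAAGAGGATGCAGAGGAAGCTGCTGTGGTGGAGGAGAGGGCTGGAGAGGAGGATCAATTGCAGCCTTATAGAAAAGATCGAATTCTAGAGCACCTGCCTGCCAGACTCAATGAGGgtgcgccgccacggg
Vldlr, 84 bases, chr19:27321083-27321166, plus strand: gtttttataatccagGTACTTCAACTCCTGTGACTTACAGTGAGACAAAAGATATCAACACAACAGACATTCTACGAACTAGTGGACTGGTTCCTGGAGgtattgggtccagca
Ptbp1, 78 bases, chr10:79322862-79322939, plus strand: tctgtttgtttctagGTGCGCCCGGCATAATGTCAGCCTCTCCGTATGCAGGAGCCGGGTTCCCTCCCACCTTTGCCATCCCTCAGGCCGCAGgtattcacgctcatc
Fgfr1, 267 bases, chr8:26665980-26666246, plus strand: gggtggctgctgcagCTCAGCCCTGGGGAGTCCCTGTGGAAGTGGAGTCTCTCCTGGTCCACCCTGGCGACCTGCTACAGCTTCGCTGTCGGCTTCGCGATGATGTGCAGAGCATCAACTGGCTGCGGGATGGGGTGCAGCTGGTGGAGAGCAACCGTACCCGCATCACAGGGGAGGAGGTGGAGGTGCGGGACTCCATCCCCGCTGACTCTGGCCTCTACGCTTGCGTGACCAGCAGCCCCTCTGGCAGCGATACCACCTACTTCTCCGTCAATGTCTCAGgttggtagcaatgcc

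The counts showed how a read was assigned. Exon structures were known for 2945 of the 3868 rows. No read in any sample was counted in the 77 exons of at most 50 bases that 1 row adds to another, and none on the 59 rows made of 1 exon of at most 50 bases. The shortest added exon with a read had 51 bases. In the 129 genes where rows outnumbered the independent sums of exons, row counts equalled sums over exons to within 0.5 reads. These counts are those of reads lying wholly inside 1 exon, and reads across a splice junction left no trace in them. An exon of 60 bases then offers 10 places where a read can start, and a microexon offers none. Splicing of short exons, such as the exon of 45 bases in Gnas, could not be measured.

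The leading row, the one with the highest mean RPKM, rarely stood clear of the next. The ratio between them had a median of 1.03, with quartiles of 1.01 and 1.09, and was under 1.1 in 1164 genes. In 1179 genes (77.5%) the same row led in 6 of 6 samples, beside 70.5% of all genes with at least 2 NM_ rows and a mean of 50 reads. In 97 genes (6.38%) the leading row was at least 1.5 times the next in every sample where the next row had reads. The share in that wider set was 5.89%. A tie counted as leading, also between rows without reads. A sample in which no row of a gene had reads therefore did not lower either count. The leading row was the shortest of the gene in 1030 genes (67.7%) and the longest in 338 (22.2%). When rows were ranked by reads instead, the longest led in 1231 (80.9%). Ranked by reads per possible read start, which was possible in 877 genes, the shortest led in 69.8%, against 68.6% of the same genes by RPKM.

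**Figure D1:**
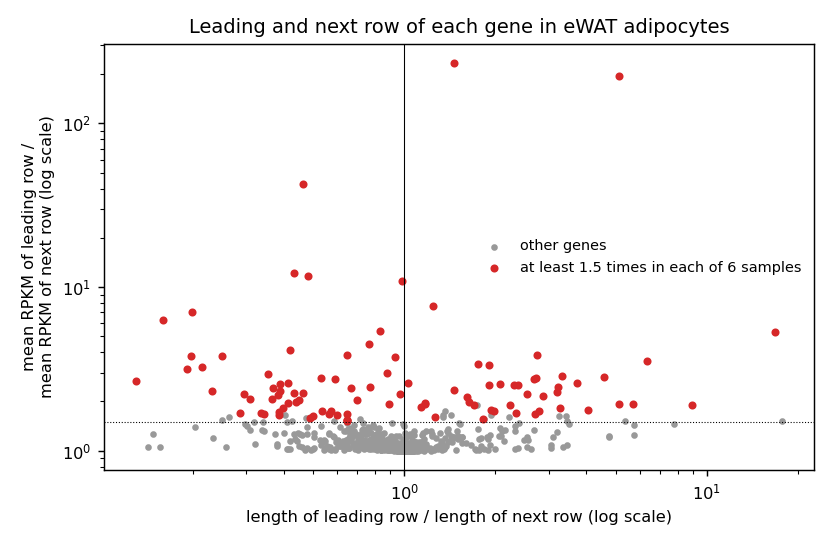
Ratio of the mean RPKM of the leading row to that of the next row (y axis, log scale) against the ratio of their lengths (x axis, log scale), 1 point for each of the 1521 genes. The 97 genes at or over 1.5 times in every sample with reads on the next row are in red. Most points lie close to a ratio of 1, with a median of 1.03, on both sides of equal length.

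In the examples that follow, the row that led in RPKM held more reads than the next in Ahnak, Tshr, Ghr and Fas, and fewer in Naca, Mylk and Ifnar2. All but Ghr were chosen after their values were seen. Ahnak encodes a giant scaffold protein. Its row of 1 exon of 17498 bases (NM_009643) had 118, 186 and 231 RPKM as lowest, median and highest sample. The row of 6 exons and 1046 bases (NM_001039959) had 29.0, 33.1 and 37.4 RPKM. The large exon was higher in all 6 samples, by 4.06 to 6.75 times.

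Naca encodes a subunit of the complex that binds nascent chains at the ribosome, and a muscle form of it carries a very large added exon. That exon, of 5916 bases (chr10:127476227-127482142, mm9), held 6 to 41 reads, while the row without it held 2407 to 3625. The row with the exon held slightly more reads, 2413 to 3635, over a length of 7034 instead of 1118 bases. In RPKM the row without the exon therefore led, with a ratio of means of 6.26. In Mylk, the gene of myosin light chain kinase, the row that begins 171530 bases downstream (NM_001082306, 43.6 ± 6.2 RPKM, SD, n = 6) led the full row of 32 exons (21.3 ± 3.1) by 2.03 to 2.06 times. The full row held more reads, 4470 to 6142 against 4100 to 5628.

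Several receptor genes had rows that end early, and 4 of them are described. Tshr encodes the thyrotropin receptor, which couples to Gs. Its full row (NM_011648, 10 exons) had 21.8, 41.8 and 49.0 RPKM as lowest, median and highest. A row that ends 17968 bases upstream (NM_001113404, 9 exons, with a last exon of 562 bases of its own) had 9.93, 17.9 and 21.1 RPKM. The full row was higher in every sample, by 2.17 to 2.58 times, and the shared exons count in both.

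Ghr encodes the growth hormone receptor, and rows that end early encode the soluble growth hormone binding protein. The receptor row (NM_010284) had 183, 329 and 397 RPKM and the row of the binding protein (NM_001048178) 175, 333 and 346 RPKM as lowest, median and highest. The ranges overlapped, and the receptor row led in all samples but sample 13. It held 18038 to 42312 more reads, and its own exons include a last exon of 2963 bases.

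In Ifnar2, a subunit of the type I interferon receptor, the row that ends 11544 bases upstream (NM_001110498) led, with 36.2 ± 3.0 RPKM against 16.6 ± 1.1 for the long row (SD, n = 6). It did so in every sample, by 2.02 to 2.35 times, although the long row held more reads (1317 to 1801 against 1138 to 1470). In Fas, the death receptor, the full row (15.6 ± 2.1 RPKM) exceeded a row of 3 exons that ends 18420 bases upstream (5.72 ± 1.3) by 2.37 to 3.45 times.

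Over all members, 340 genes (22.4%) had 3′ ends more than 500 bases apart, and in 117 of these the best row of the leading end was at least 1.5 times that of the next end in every sample. The end farthest downstream led in 190 and the one farthest upstream in 141. The median ratio between the ends was 1.36. Whole rows were compared, so shared exons and row length enter these counts, which were not made over a wider set of genes. No pair of rows of 1 gene differed by an extension of the last exon alone, so tandem polyadenylation sites could not be compared. Extensions of the first exon alone were found in 5 pairs, and 2 of these reached 100 bases and 50 reads.

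Start sites more than 500 bases apart were annotated for 598 genes (39.3%), 517 of them with 2 starts. The same start led in all 6 samples in 501. The start farthest downstream led in 373 and the one farthest upstream in 198, with a median ratio of 1.06 between starts, and 44 genes reached 1.5 times in every sample. Each start was ranked by the RPKM of its best whole row, so shared exons and row length enter these counts. The counts were not made over a wider set of genes. The reads of the first exons themselves were compared where rows differed only there. Such pairs existed in 298 genes. In 278 of them both sides offered at least 10 read starts, and in 222 of these the difference in reads had the same sign in all 6 samples. These were raw reads, not divided by read starts. The length of the first exons therefore enters the sign, and the count does not rank the use of starts.

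Gnas encodes the alpha subunit of Gs, which links receptors to adenylyl cyclase, and imprinted upstream starts give XLαs and Nesp55. Rows from the Gsα start led with 234, 281 and 340 RPKM as lowest, median and highest (NM_001077510). The row of the most upstream start (NM_022000) had 150, 181 and 214 RPKM, and that of the middle start (NM_010309) 98.1, 118 and 140 RPKM. These upstream values came from shared exons. A row made of the middle first exon of 2359 bases and 1 other exon (NM_201617) held 1 read in sample 15 and none in the others. The Gsα first exon of 346 bases held 906 to 1532 reads more than the exon of 2359 bases, and the upstream rows NM_010309 and NM_022000, alike in all later exons, differed by at most 1 read.

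Pparg encodes the master regulator of fat cell formation, and its downstream start gives PPARγ2, the form typical of adipocytes. The PPARγ2 row (NM_011146) had 66.8, 103 and 119 RPKM as lowest, median and highest, and the PPARγ1 row (NM_001127330) 63.1, 96.7 and 112 RPKM. The row of PPARγ2 was higher in 6 of 6 samples by 1.06 to 1.07 times. Its own first exon of 127 bases held 31 to 139 reads more than both first exons of PPARγ1 together, although these offer 115 read starts against 77. Expressed in RPKM units, the least covered exon of the PPARγ2 row had 29.6 (18.5 to 41.1) and that of the PPARγ1 row 3.68 (2.15 to 5.08).

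Other highly expressed genes also had rows from more than 1 start. Adipoq encodes adiponectin and had the highest RPKM of all members. Its row of 2 exons (NM_144744), which begins 8673 bases downstream, had 1158, 2471 and 3163 RPKM as lowest, median and highest, and the row of 3 exons (NM_009605) 909, 1951 and 2462 RPKM. The least covered exon had 1609 RPKM in the former and 174 in the latter. The latter also held 2310 to 5972 reads more, and the exon structures of this pair were not both known. Dbi encodes the acyl-CoA binding protein. The first exon of NM_007830 held 1897 to 3046 reads more than that of NM_001037999, whose least covered exon had 2.83 RPKM.

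For Aldoa, which encodes the glycolytic enzyme aldolase A, the first exon of NM_007438 held 886 to 1003 reads more than that of NM_001177308. This excess was not particular to NM_007438. The row NM_001177307, from another start, held 892 to 1012 reads more than NM_001177308 and differed from NM_007438 by -5 to 19 reads. NM_007438 is 50 bases longer than NM_001177308, and these raw reads were not divided by read starts. Lipe encodes hormone-sensitive lipase. Its 2 rows share all exons but the first, and the first exon of NM_001039507 has only 45 bases and can hold no read. The first exon of 487 bases of NM_010719 held 109 to 170 reads, or 9.62 RPKM (6.83 to 11.03), beside 452 ± 110 RPKM for the row NM_001039507 (SD, n = 6). For 3 first exons shared by all NM_ rows of known structure in a gene, the reads could be solved. Their density was 0.0692, 0.210 and 0.561 of that in the other exons.

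Mgll encodes monoacylglycerol lipase, which splits the last fatty acid from glycerol. Its leading row (NM_011844, 8 exons) had 227, 369 and 448 RPKM as lowest, median and highest. A row with 4 exons that ends 61652 bases upstream (NM_001166250) had 29.1, 45.8 and 61.6 RPKM, and its least covered exon 0.932 RPKM. The stretch of 135 bases by which NM_011844 exceeds NM_001166249 held 1407 to 2370 reads. Other genes near the top of the range had rows that differ by a few bases. Psap encodes prosaposin, the precursor of lysosomal saposins. Its 6 rows were between 722 and 741 RPKM in the mean, and the leading row had 1894 RPKM in sample 15 and 355 to 774 in the others. Plin1 encodes perilipin-1, the coat protein of the lipid droplet, and its rows of 1860 and 1917 bases had 485 ± 132 and 474 ± 129 RPKM. The longer row held 89 to 218 reads more, and the exon structures of this pair were not both known. Sepp1 encodes the plasma selenoprotein P, and its rows from different starts differed by at most 14 reads. In Cd36, the fatty acid transporter, the 5 rows were between 1085 and 1143 RPKM in the mean and shared nearly all reads.

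Lmna encodes the nuclear lamins A and C. The row of 10 exons from the upstream start (NM_001111102) had 50.98, 65.6 and 153 RPKM as lowest, median and highest, and the row of 12 exons (NM_001002011) 39.9, 54.5 and 118 RPKM. Sample 15 was the highest for both, and without it the ranges were 50.98 to 70.9 and 39.9 to 55.1 RPKM. The first exon of 585 bases shared by these rows held 865 to 3083 reads more than the first exon of 63 bases of NM_019390.

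**Figure D2:**
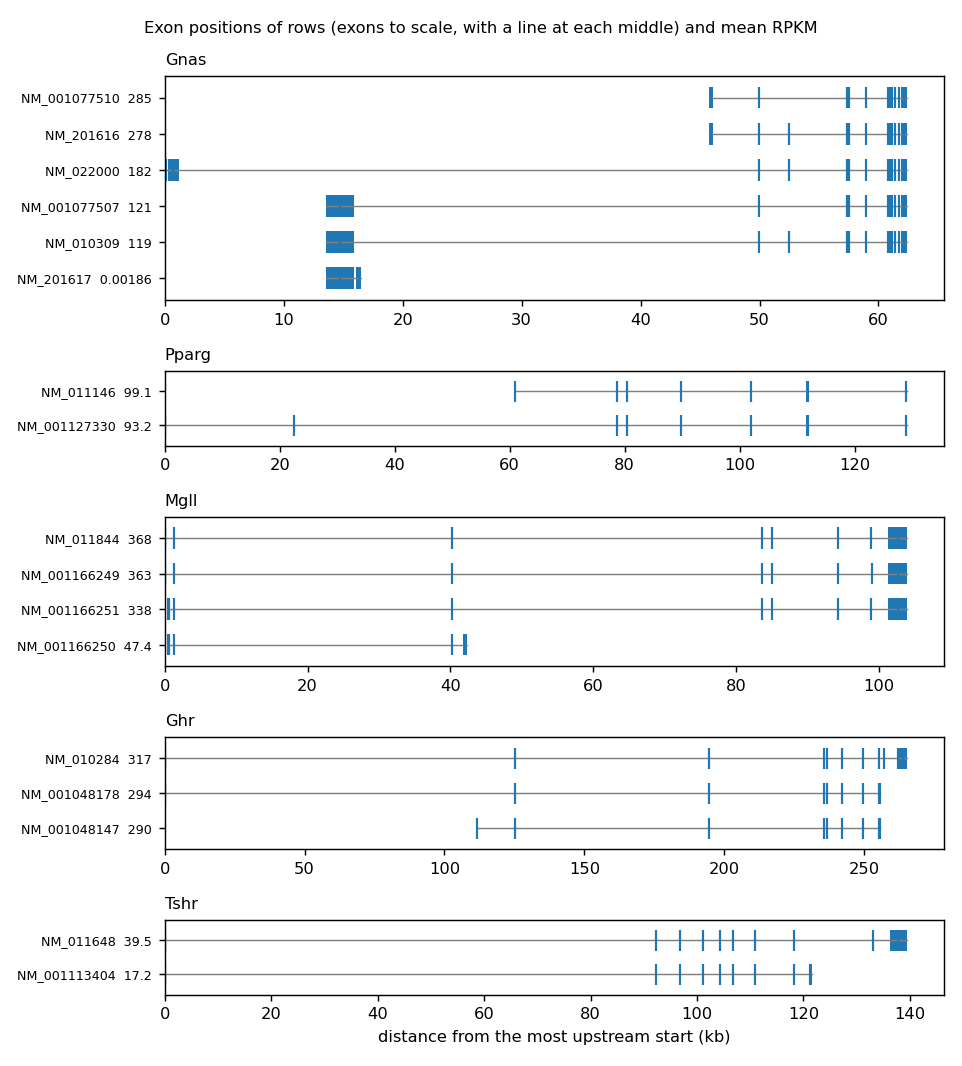
Exons of the rows of 5 genes by distance from the most upstream start (x axis, kb), 1 line per row with its mean RPKM over 6 samples beside its name. For Gnas the row made of the upstream exon of 2359 bases and 1 other exon has 0.00186 RPKM, while rows that share the downstream exons have 119 to 285. One Gnas row without a known structure is left out.

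Exons that 1 row adds to another gave the closest view of what separates isoforms. In 402 genes a pair of rows had equal ends and differed by 1 exon. In 303 of these both structures were known and nested, and in 259 the exon had at least 51 bases and the shorter row a mean of at least 50 reads. The reads of the exon per possible read start, divided by those of the shorter row, are called its relative density. A value near 1 means that the exon was read about as often as the rest of the row. All 259 exons lay between splice site letters in the mm9 genome.

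The relative density had a median of 0.577, with quartiles of 0.181 and 1.02. Taken per base of length instead of per possible read start it had a median of 0.313, with 73 exons under 0.1, and values per base stand beside several of the exons described. It was under 0.1 in 48 exons (18.5%) and at least 0.75 in 104. Among added exons of at least 60 bases the share under 0.1 was 16.7%. For comparison, 20 internal exons shared by all NM_ rows of known structure in a gene had a median of 1.09. Of these, 1 (5%) was under 0.1, and the shortest had 66 bases. In 31 exons the value was under 0.1 in every sample, and in 62 at least 0.75 in every sample. The 176 coding exons had a median of 0.705, the 47 exons in untranslated regions 0.257 and the 36 partly coding exons 0.384. Exons in second position (76) had a median of 0.290 and later ones (183) 0.667. Coding exons whose length is not a multiple of 3 (22) had a median of 1.07, against 0.656 for the 154 that are a multiple of 3.

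**Figure D3:**
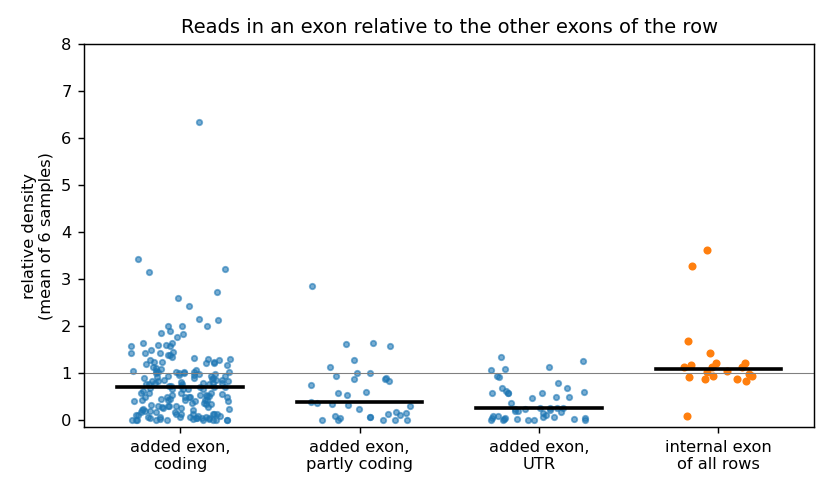
Relative density of the added exon (y axis, mean of 6 samples), 1 point per gene, for 176 coding, 36 partly coding and 47 untranslated exons. The last group is 20 internal exons that all NM_ rows of known structure in a gene share. Black lines are the medians of 0.705, 0.384, 0.257 and 1.09.

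Lpin1 encodes lipin-1, a phosphatidate phosphatase and coactivator, whose β form has the coding exon of 99 bases shown above. That exon held 34, 86, 87, 99, 110 and 129 reads in the 6 samples. Its relative density was 0.788 ± 0.139 (SD, n = 6), between 0.536 in sample 15 and 0.934 in sample 14, and per base of length it was 0.477. A second added exon of Lpin1, of 144 bases in the 5′ untranslated region, held 16 to 35 reads and had 0.112 ± 0.034.

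In Vegfa, the main growth factor of blood vessels, the exons of 72 and 132 bases encode stretches that bind heparin and matrix. The exon of 132 bases held 159 to 453 reads, with a relative density of 1.36 ± 0.092 (0.920 per base). The exon of 72 bases held 6 to 22 reads, with 0.233 ± 0.075 (0.0788 per base). No sample overlapped between these exons, the lowest of the longer one being 1.22 and the highest of the shorter 0.345.

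Nnat, the imprinted gene of neuronatin, has an α form with the exon of 81 bases and a β form without it. The exon held 263 to 863 reads, and its relative density was 1.07 ± 0.076 (SD, n = 6). Per base of length it was 0.450. All 6 samples lay between 0.943 and 1.15. Over the same samples the row without the exon ranged from 205 to 803 RPKM, a wider span than that of the relative density.

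Pnpla2 encodes adipose triglyceride lipase, the first enzyme of lipolysis. Its coding exon of 168 bases held 2418 to 5083 reads and had a relative density of 2.00 ± 0.12, with the lowest sample at 1.895. Pfkfb3, which makes fructose 2,6-bisphosphate, has several exons near the end of its coding sequence. The exon of 174 bases had 1.26 ± 0.046 and the exon of 87 bases 0.306 ± 0.068 (0.155 per base).

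Receptor genes differed. Vldlr, the receptor of very low density lipoprotein, has an exon of 84 bases for a segment rich in O-linked sugars. It held 13 to 26 reads and had 1.21 ± 0.24 (0.551 per base). In Fgfr1 the exon of 267 bases encodes the first immunoglobulin loop of the fibroblast growth factor receptor. It held 107 to 226 reads, with 0.706 ± 0.093, and sample 15 was the lowest at 0.545. Tgfbr2, a receptor of TGF-β, has an exon of 75 bases that held 2 to 5 reads, with 0.374 ± 0.145 (0.135 per base).

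Some added exons had a mean relative density under 0.1. In Bsg the exon of 348 bases, which adds an immunoglobulin domain in the form known from the retina, held 0 to 7 reads beside 4749 to 6996 on the row without it. The relative density was 0.00206 ± 0.0017. Rtn4 encodes reticulon-4, whose exon of 2361 bases makes the Nogo-A form. It held 311 to 755 reads, with 0.0743 ± 0.025, and sample 7 was the highest at 0.121. Igfbp7, Postn and Lgals9 had added exons of 81 to 93 bases with at most 4 reads in any sample.

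Exons with no read at all were 12 in number. Ptpra, a receptor tyrosine phosphatase, has an exon of 108 bases with no read in any sample, which allows a relative density of up to 0.00904 (3 reads over the 6 samples). For Ssbp3 (81 bases) the limit was 0.0483, for Itsn2 (81 bases) 0.0617 and for the exon of 54 bases of Clta, the clathrin light chain, 0.0373. These limits cover counting error only. Exons of 51 to 59 bases have fewer than 10 read starts, and the limit for the exon of 51 bases of Brd3 was 2.67, which shows nothing.

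At the other end, Dap3 (90 bases) had a relative density of 6.34 ± 0.99, Dnlz (140 bases) 3.43 ± 0.30, 2310008H09Rik (69 bases) 3.22 ± 1.2 and Timm22 (197 bases) 3.16 ± 0.40. Per base of length Dap3 had 3.25 and 2310008H09Rik 0.924. Dap3 encodes a mitochondrial ribosomal protein and Timm22 a translocase of the inner membrane. Eif4a2, a translation initiation helicase, had 2.73 ± 0.18 for its exon of 140 bases. Shared internal exons also reached 3.61, so a value above 1 is no sign of more than full inclusion.

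Ptbp1, a repressor of splicing, has an exon of 78 bases that held 16 to 26 reads, with 0.507 and a range of 0.342 to 0.597 (0.232 per base). Nfia, a transcription factor of the nuclear factor I family, had 1.34 ± 0.29 for its exon of 129 bases, and Pcbp2, which binds poly(C) RNA, 1.29 ± 0.13 for that of 93 bases. Per base of length Nfia had 0.864 and Pcbp2 0.777. Cd74, the invariant chain of MHC class II, is a gene of antigen presenting cells, and its exon of 192 bases makes the longer form. That exon held 118, 126, 196, 251 and 409 reads in 5 samples and 1556 in sample 15. Its relative density was 0.293 ± 0.022, between 0.266 and 0.320, and sample 15 lay inside the range of the others at 0.306.

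**Figure D4:**
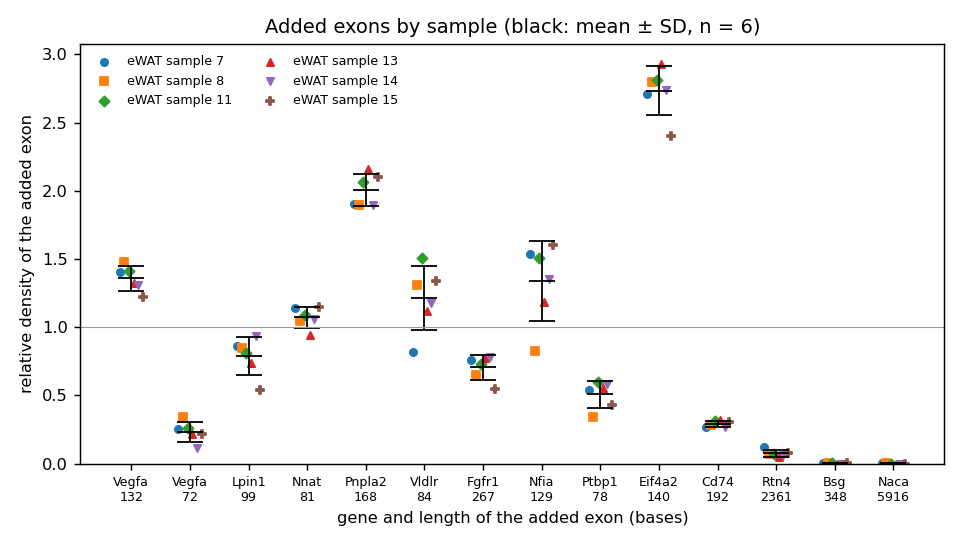
Relative density, per possible read start, of 14 added exons (y axis) with 1 symbol per eWAT sample and the mean ± SD of 6 samples in black, by gene and exon length (x axis). The means of the longer Vegfa exon and of Nnat, Pnpla2, Vldlr, Nfia and Eif4a2 lie between 1.07 and 2.73, and those of Rtn4, Bsg and Naca at 0.0743 or lower.

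Lists of genes were described by their counts. Of 63 genes of lipid storage and lipolysis 13 were members, and the same row led in all samples in 13 of 13, beside 77.5% of all members, with a median ratio to the next row of 1.02. Among 65 genes of Gs and cAMP signaling 17 were members, with the same leading row in 12 a clear leading row in 1 (5.88%, beside 6.38% of all members), the G protein regulator Rgs3, and a median ratio of 1.02. The median over all members was 1.03. The cytoskeleton, adhesion and matrix list gave 18 members of 69, with the same leading row in 16. RNA processing had 29 members of 83 and the same leading row in 22. For the adipogenic and lipogenic transcription factors the counts were 11 of 48 and 9, for adipokines and secreted proteins 11 of 40 and 8, for insulin signaling and glucose use 15 of 58 and 11, and for imprinted and complex loci 7 of 23 and 6. Starts more than 500 bases apart were annotated for 10 of the 15 insulin signaling members (66.7%) and 7 of the 11 transcription factors (63.6%), beside 39.3% of all members. The share was 58.8% for Gs and cAMP signaling, 54.5% for adipokines, 50% for cytoskeleton, 42.9% for imprinted loci, 38.5% for lipid storage and 24.1% for RNA processing.

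The same row led in 5 samples in 145 genes and in fewer in 197. The 5 such genes with the highest RPKM were Ghr, Pfkfb3, Acp5, Adipor2 and Lpgat1. For Pfkfb3, Acp5 and Lpgat1 the ratio of the leading to the next row was 1.005, 1.001 and 1.001. Adipor2, an adiponectin receptor, had 144 ± 35 RPKM for the row of 8 exons and 137 ± 35 for a shorter one, which led in 1 sample. Just inside the RPKM minimum were Timm22 (5.00), Rabgap1l (5.00) and Tmem141 (5.01), and just outside were Pigc (4.99), Tmem80 (4.99) and Kctd9 (4.99).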

How the data were processed

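RNA from 6 eWAT samples was sequenced by the authors, who made libraries with the NEBNext Ultra RNA kit. The reads were mapped to mm9 and analysed with the Genomatix Genome Analyzer, per the methods of the study, while the submitters' processing notes name cutadapt 1.16 and HISAT2 2.1.0 with no role given. The authors deposited, for each of 189660 transcript rows, a read count that is not normalized. They also deposited an RPKM, found to equal the count divided by row length and 1 total per sample, and an exon signal (NE), which was converted to RPKM units with 1 factor per sample. The counting software's settings were not given in the sources used here. How a read was assigned to rows was inferred from the counts. Since exons of at most 50 bases then hold no read, they add length but no reads to the RPKM of a row.

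Rows equal in position, length and exon number were collapsed. Exons came from GENCODE vM1 transcripts of mm9 with the same exon number whose outer ends, moved to those of the row, gave its length. Numbers per sample are those in the sample titles. Only 1 group was described, so no test was made. Python 3.11.15 with numpy 2.4.6 and pandas 2.3.3 computed all values, and the functions were tested on simulated data. Named genes were the 10 with the highest RPKM, genes with well known isoforms, the 4 lowest and 4 highest added exons, the 5 highest without a constant leading row, the 6 highest with alternative starts, 3 genes on each side of the minimum and the highest of each list. Other named genes were chosen after their values were seen: Ahnak, Naca, Mylk, Tshr, Ifnar2, Fas, Vldlr, Fgfr1, Tgfbr2, Bsg, Rtn4, Igfbp7, Postn, Lgals9, Itsn2, Brd3, Eif4a2, Ptbp1, Nfia, Pcbp2, Cd74 and App. The minimum length of an added exon was planned as 30 bases and became 51 once exons of at most 50 were found empty. The plan named a density relative to the shorter row but not its denominator. Possible read starts were taken as the denominator after the counting had been inferred, and bases of length as the alternative. The shared exons and the comparison of 3′ ends were also added after seeing the data. The members and lists were chosen with earlier results of these data known. Alternatives changed the RPKM minimum, the rows, the folds, the lengths, the density and the samples.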

Additional observations from a re-analysis of the deposited data

Results flagged for a closer look

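Among 103 measures of the named genes and marker lists, Dixon's criterion for 6 samples set a sample apart in 6, and chance gives about 1 in 20, or 5.15. The relative density of the Rtn4 exon of 2361 bases was 0.121 in sample 7 and 0.0492 to 0.0748 in the others. For the exon of 69 bases of 2310008H09Rik it was 5.65 in sample 13 and 2.36 to 3.29 elsewhere. The ratio of the leading to the next row was 1.02 in sample 15 for Acp5 (0.995 to 1 elsewhere) and 1.02 in sample 14 for App (1.01 to 1.02 elsewhere). Sample 15 also stood apart in the summed RPKM of adipocyte markers, with 1.07e+04 against 1.79e+04 to 2.16e+04, and of macrophage markers, with 2.27e+03 against 162 to 540.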

How the results depend on the processing

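No paired analysis was possible because only 1 group was described and no result comes from a test. A minimum RPKM of 1 gave 2533 members, 1825 with the same leading row, 151 with a clear leading row and 595 led by the longest, and a minimum of 10 gave 902, 727, 64 and 196. All rows whatever the accession gave 7555, 4657 and 312 for the first 3 of these, and the longest led in 354, or 4.69% against 22.2%. Ranked by reads, the longest row led in 1231 genes. A clear leading row was found in 203 genes at 1.2 times and in 53 at 2 times. No extension at the 5′ end reached 300 bases (0 genes). The median relative density was 0.313 per base of length, with 73 genes under 0.1, and 0.249 over all planned pairs per base, with 145 genes, both added after seeing the data. Without 1 sample each, members numbered 1494 to 1530, genes with the same leading row 1189 to 1216, those with a clear one 97 to 101, those led by the longest 331 to 345, exons under 0.1 47 to 53, and the median relative density was 0.539 to 0.568. Without sample 15 these were 1494, 1189, 99, 337, 49 and 0.564. The median relative density moved by more than its SD between samples (0.0168) without sample 7 (0.539) and without sample 11 (0.542). The main value of 0.577 lay above all values without 1 sample and above the medians of single samples, 0.522 to 0.568. Ranking by reads per possible start kept the leading row in 725 of 877 genes with known structures. It gave 63 genes with a clear leading row against 53 by RPKM. Of 287 alternatives for 41 named exons, 24 moved the value by 1 SD or more, all of them per base of length. The other alternatives for the counts left the counts within 1.5 times. Exons with few read starts limit what the depth can show, and the relative density rests on annotated structures and on uneven coverage along a row.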
